A study of Mus musculus with 6 samples.

Results

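The data describe 7 genes of the sinus node and conduction system in the mouse embryonic heart: Shox2, Hcn4, Cacna1c, Cacna1d, Cacna1g, Kcnj3 and Gja5. They were taken by symbol from the 32285 genes of a single-cell RNA table, and each of the 7 was found. Cells came from the microdissected cardiogenic region of wild-type C57BL/6 embryos at stage E10.5. The mothers had been pretreated with vehicle (3 samples) or with streptozotocin (STZ), which leaves them hyperglycemic (3 samples), and were mated with normal glycemic males. The series states at least 3 embryos per group. Per the labels, the dissected region also held mesoderm outside the heart, ectoderm and endoderm. The sample descriptions name a chromatin assay, whereas the titles, the library kit and the values are those of RNA.

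The deposited table holds 6 libraries told apart by a barcode suffix, here numbered 1 to 6, and nothing in the sources used here ties a suffix to a sample. Vehicle and STZ embryos were therefore not compared, and no test was made. Values are given for the pooled cells and as a range over libraries. A level is the number of unique molecular identifiers (UMIs, 1 per captured RNA molecule) of a gene per 1000000 UMIs of the same cells (CPM). Intervals are exact 95% intervals and cover counting error only. Genes were not compared with each other in level.

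Of 53362 barcodes, 35962 had at least 2500 genes and at most 10% mitochondrial UMIs and were kept, 4903 to 7136 per library. The median depth was 30533 to 35634 UMIs per cell by library. Cardiomyocytes were the 3322 cells (9.24%) with at least 5 UMIs of both Tnnt2 and Ttn, 377 to 755 per library. Of genes not used in that gate, Actn2 was 117-fold, Myh6 444-fold, Myh7 252-fold and Nkx2-5 27.8-fold higher in them than in all other cells. Another cell type's gate was also met by 609 cardiomyocytes (18.3%), most often that of cushion mesenchyme (318 cells) or epicardium (147 cells). Barcode sequences recurred across libraries: 2890 kept cells (8.04%) and 583 cardiomyocytes (17.5%) carried a sequence seen in more than 1 library, although only 4 sequences were shared between cardiomyocytes. The counts of members given below were 5, 3, 2 and 4 with these cells and 5, 3, 2 and 4 without them.

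The heartbeat starts in the sinus node, a small group of cardiomyocytes where the systemic veins enter the right atrium. Its cells depolarise by themselves through the hyperpolarisation-activated channel HCN4 and through calcium channels, and in the embryo the transcription factors Shox2, Tbx18, Tbx3 and Isl1 set them apart from the Nkx2-5-expressing atrial muscle around them. Shox2 restrains Nkx2-5 and the working-muscle programme. Cacna1c and Cacna1d encode the pore-forming subunits of the L-type calcium channels Cav1.2 and Cav1.3, and Cacna1g that of the T-type channel Cav3.1. Kcnj3 encodes GIRK1, a subunit of the potassium channel through which the vagus nerve slows the heart. Gja5 encodes connexin 40, a gap junction protein of fast-conducting atrial and His-Purkinje muscle and of arterial endothelium.

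The genes lie on GRCm38 (GENCODE M21) as follows, with Shox2 (ENSMUSG00000027833) at chr3:66971727-66981771, Hcn4 (ENSMUSG00000032338) at chr9:58823412-58863175, Cacna1c (ENSMUSG00000051331) at chr6:118587240-119196418 and Cacna1d (ENSMUSG00000015968) at chr14:30039939-30491455. Cacna1g (ENSMUSG00000020866) at chr11:94408391-94474198, Kcnj3 (ENSMUSG00000026824) at chr2:55435970-55598145 and Gja5 (ENSMUSG00000057123) at chr3:96904693-97077416 were placed in the same way. Promoter sequences (250 bases before to 50 after the annotated start, RefSeq, GRCm38.p6) were held for 6 of the 7 genes, with 9 starts in all, and not for Cacna1g. Those of Shox2, Hcn4, Kcnj3 and Gja5 are given because these genes divided the cardiomyocytes most clearly. They are read 5′ to 3′ on the gene's own strand. Capitals mark a match of 6 bases to a motif, searched on both strands. The TATA box was spelled TATAAA, the site of GATA factors was spelled AGATAA, the core of T-box sites was spelled GGTGTG and the site of NKX2 factors was spelled CAAGTG. No window printed held more than 1 match, so none overlapped. The windows lie at chr3:66981722-66982021 on the minus strand (Shox2), chr9:58822699-58822998 on the plus strand (Hcn4), chr2:55435720-55436019 on the plus strand (Kcnj3) and chr3:97032152-97032451 on the plus strand (Gja5).
Shox2: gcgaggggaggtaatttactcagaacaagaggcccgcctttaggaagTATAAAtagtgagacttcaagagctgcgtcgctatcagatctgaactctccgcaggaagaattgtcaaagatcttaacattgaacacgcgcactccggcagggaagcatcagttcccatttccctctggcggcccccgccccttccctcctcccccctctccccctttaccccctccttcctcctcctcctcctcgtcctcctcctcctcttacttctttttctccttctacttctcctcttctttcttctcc
Hcn4: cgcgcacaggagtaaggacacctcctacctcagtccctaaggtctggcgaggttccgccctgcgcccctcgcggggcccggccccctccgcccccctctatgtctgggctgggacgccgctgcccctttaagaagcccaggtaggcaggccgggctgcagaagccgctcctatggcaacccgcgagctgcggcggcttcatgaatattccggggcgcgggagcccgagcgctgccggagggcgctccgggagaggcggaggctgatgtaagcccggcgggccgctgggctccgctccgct
Kcnj3: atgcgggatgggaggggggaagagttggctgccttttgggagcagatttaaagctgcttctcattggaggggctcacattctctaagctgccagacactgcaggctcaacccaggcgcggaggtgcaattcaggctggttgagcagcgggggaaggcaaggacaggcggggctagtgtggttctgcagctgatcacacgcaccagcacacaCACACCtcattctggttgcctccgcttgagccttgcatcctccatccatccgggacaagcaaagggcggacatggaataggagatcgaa
Gja5: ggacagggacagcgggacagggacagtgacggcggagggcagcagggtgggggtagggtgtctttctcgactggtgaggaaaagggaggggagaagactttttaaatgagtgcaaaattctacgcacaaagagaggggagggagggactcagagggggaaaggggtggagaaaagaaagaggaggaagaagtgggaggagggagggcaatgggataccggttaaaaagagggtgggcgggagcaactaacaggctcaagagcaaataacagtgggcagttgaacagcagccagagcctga
Shox2 held 1 TATAAA, 203 bases before its start. Kcnj3 held GGTGTG on the opposite strand, printed above as its reverse complement, 39 bases before its start. No letters of the 4 motifs occurred in the Hcn4 and Gja5 windows. Among 32851 promoter windows of this length, TATAAA occurred in 13.6%, AGATAA in 11.2%, GGTGTG in 19% and CAAGTG in 13.6%. The G and C share was 71.7% for Hcn4, 57.7% for Kcnj3, 55.7% for Gja5 and 53.3% for Shox2, against a median of 52.7% over all windows. These matches are descriptions of the letters.

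Against all other cells, 5 of the 7 genes were at least 2-fold higher in cardiomyocytes with at least 10 CPM there: Shox2, Hcn4, Cacna1c, Cacna1d and Kcnj3. Of the 9332 genes that reached 10 CPM on either side, 9.16% were higher by the same rule and 10.3% lower. Kcnj3 differed the most. It lay between 27.9 and 38.5 CPM over libraries in cardiomyocytes (median 35.5) and between 0.522 and 1.11 CPM in other cells, a ratio of 42.0 (interval 39.2 to 45.1). No library's cardiomyocytes came near the other cells. Cacna1d lay between 214 and 290 CPM (median 252) against 13.0 to 15.5 CPM, a ratio of 18.0. Cacna1c lay between 482 and 543 CPM (median 502) against 47.5 to 51.1 CPM, a ratio of 10.2. Both L-type channel genes were separated from other cells in each of the 6 libraries and varied little between them. The share of all genes separated in this way was not counted. Hcn4 lay between 15.8 and 30.5 CPM (median 21.9) against 1.28 to 2.02 CPM, a ratio of 15.0. Shox2 lay between 56.5 and 107 CPM (median 66.7) against 8.14 to 14.5 CPM, a ratio of 6.83.

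The remaining pair were low in the heart muscle as a whole. Gja5 was at 8.17 CPM in cardiomyocytes and 1.65 CPM in other cells, a ratio of 4.95 in the same direction in 6 of 6 libraries, but below the 10 CPM asked of a called gene. Cacna1g was at 0.641 CPM in cardiomyocytes and 3.58 CPM in other cells, lower in 6 of 6 libraries. Its UMIs were seen in 2.83% of cardiomyocytes at a median of 44049 UMIs per cell, against 1.57% of erythroid cells, which should lack it, at a median of 64009 UMIs. Cacna1h, the gene of the other T-type channel Cav3.2, was at 16.6 CPM in cardiomyocytes and 1.99 CPM elsewhere (ratio 8.35).

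**Figure D1:**
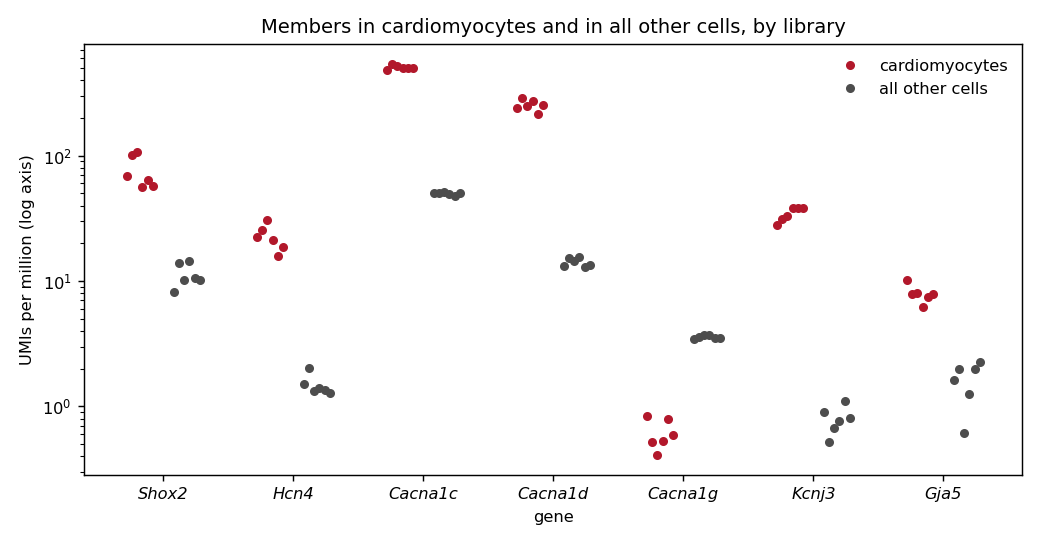
Level of each gene in cardiomyocytes (red) and in all other cells (grey), with 1 point per library on a log axis of CPM. The red points lie above the grey ones for 6 genes and below them for Cacna1g, whose cardiomyocyte values run from 0.408 to 0.846 CPM.

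Across 21 marker-gated cell types, cardiomyocytes held the highest level of 4 of the 7 genes, namely Hcn4, Cacna1c, Cacna1d and Kcnj3. The share of all genes that peak in cardiomyocytes was not counted, so whether 4 of 7 is unusual cannot be told. Some gate names did not hold in the check genes and are replaced here by the genes of the gate. The cells gated as mural were low in Acta2 (0.31-fold) and Kcnj8 (0.35-fold) and are called Rgs5+ Pdgfrb+ cells. The cells gated as arterial endothelium had Hey1 at 0.83-fold and Efnb2 at 1.35-fold and are called Npr3-negative endothelial cells. The endocardial name was kept, with Nfatc1 27.5-fold and Emcn 49.7-fold higher than in all other cells. That gate asked for Npr3, which was seen in 84.0% of all 2101 endothelial cells outside the cardiomyocytes. How many of its cells came from vessels was not tested. In the anterior second heart field, Tbx1 and Tcf21 were over 5-fold higher than in all other cells and Fgf8 was lower (0.42-fold).

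Hcn4 was 22.2 CPM in cardiomyocytes and next highest in cushion mesenchyme (3.81 CPM), which did not differ beyond the library spread from the Rgs5+ Pdgfrb+ cells (3.75 CPM, higher in 3 of 6 libraries). Hcn4 UMIs were seen in 39.1% of cardiomyocytes and in 0.143% of erythroid cells. Kcnj3 had a narrow distribution. After cardiomyocytes (33.9 CPM) came branchiomeric muscle precursors (17.9 CPM, 60 cells, 0 to 40.5 CPM over libraries) and the anterior second heart field (10.9 CPM, 7.43 to 15.6 CPM). In the latter, 27 of 705 cells (3.83%) with 3 or more UMIs held 60.7% of the Kcnj3 UMIs. Those 27 cells, singled out after their values were seen, had Msc at 46.1 CPM against 18.5 CPM and Myf5 at 37.1 CPM against 14.2 CPM in cells of the same gate without Kcnj3. Both genes encode factors of head muscle formation, and their ratios were 2.49 (interval 1.75 to 3.45) and 2.62 (1.76 to 3.78). Tnnt2 in the same cells was 5.62 CPM against 11.1 CPM.

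Cacna1d stood at 253 CPM in cardiomyocytes and reached 40.1 CPM in Rgs5+ Pdgfrb+ cells, 38.7 CPM in cushion mesenchyme and 37.9 CPM in the anterior second heart field. Cacna1c was found in many types. Its 508 CPM in cardiomyocytes was followed by 175 CPM in neurons, 110 CPM in second arch crest, 99.3 CPM in mandibular crest and 88.5 CPM in Rgs5+ Pdgfrb+ cells, while endocardial cells had 3.78 CPM. Cacna1g had its highest levels in neural crest mesenchyme of the arches: 7.33 CPM in mandibular crest, 7.18 CPM in second arch crest and 5.92 CPM in the third and posterior arch crest. The first of these was above the second in only 3 of 6 libraries, so their order is not settled.

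With all cardiomyocytes taken as 1 type, Shox2 was highest outside the heart, although the sinus-gene class of cardiomyocytes described below had a higher pooled level. Neurons had 159 CPM over 145 cells, with a UMI in 84.8% of them, and exceeded cardiomyocytes (76.3 CPM) in 5 of the 5 libraries with enough neurons, a ratio of 2.09 (interval 1.94 to 2.24). Library 3, with 3 neurons, was not compared. The anterior second heart field followed at 40.3 CPM, below cardiomyocytes in 5 of 6 libraries, then cushion mesenchyme at 21.7 CPM. In erythroid cells Shox2 was 0.183 CPM, with a UMI in 0.785% of cells. Cells with 10 or more Shox2 UMIs numbered 310 outside the cardiomyocytes (0.95% of 32640). Of these, 183 (59.0%) met no gate, 33 (10.6%) met several gates, 27 were neurons and 25 belonged to the anterior second heart field. In the heart, 488 cardiomyocytes (14.7%) reached that number.

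With all cardiomyocytes taken as 1 type, Gja5 was highest in the endocardial gate of Npr3-positive endothelial cells, at 15.7 CPM. Cardiomyocytes had 8.17 CPM, and their atrial-like class described below had 30.0 CPM. Endocardial Gja5 was 10.9, 15.5, 1.5, 15.6, 21.9 and 26.5 CPM in libraries 1 to 6. Library 3 lay far below the rest and was the only 1 of 6 in which cardiomyocytes were higher. Without it, endocardial cells had 17.0 CPM. The signal sat in few cells: 112 of 1644 endocardial cells (6.81%, interval 5.64% to 8.14%) had 3 or more UMIs and held 87.1% of the endocardial Gja5 UMIs. In those 112 cells, chosen on Gja5 after its values were seen, genes of arterial identity were far higher than in the 1420 endocardial cells without Gja5. Hey1, a Notch target, was at 206 CPM against 22.1 CPM. Gja4, the connexin 37 gene, was at 961 CPM against 110 CPM, Sox17 at 312 CPM against 40.9 CPM and Dll4, a Notch ligand, at 91.3 CPM against 13.3 CPM. All 4 were higher in each of the 5 libraries with at least 5 such cells. Genes that mark the endocardium did not move together. Nfatc1 was lower, at 41.1 CPM against 88.5 CPM, whereas Emcn was higher, at 1010 CPM against 521 CPM, each in 5 of 5 libraries, and Npr3 was 359 CPM against 286 CPM.

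**Figure D2:**
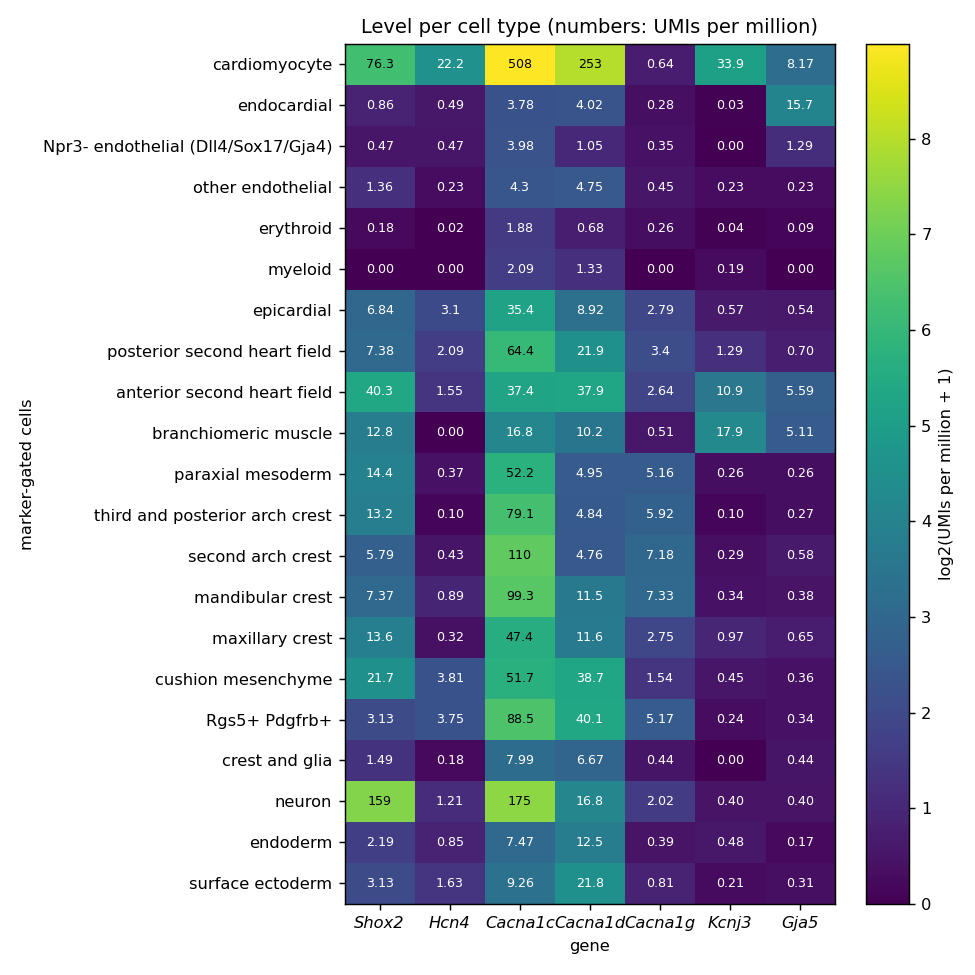
Level of each gene (columns) in 21 marker-gated cell types (rows), pooled over libraries. Colour is log2 of CPM plus 1 and the printed number is the CPM. Hcn4, Cacna1c, Cacna1d and Kcnj3 peak in the row of all cardiomyocytes, Shox2 in neurons, Gja5 in the endocardial gate (Npr3-positive endothelial cells) and Cacna1g in arch crest.

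Within the heart, cardiomyocytes were divided with genes other than the 7. The first class, called here the sinus-gene class, had UMIs of at least 3 of the 6 genes Tbx18, Tbx3, Isl1, Smoc2, Vsnl1 and Bmp4 (1078 cells). Isl1 and Bmp4 also mark the outflow tract, so the class is a rule and not a single cell type. The other classes were drawn in order from the cells left. They were atrioventricular (AV) canal-like (420 cells, Tbx2 and Bmp2) and ventricular-like (666 cells). The latter had at least 5 Myl2 UMIs and UMIs of fewer than 2 of the 4 genes Nr2f1, Stard10, Angpt1 and Sln. Atrial-like cells (479) had under 5 Myl2 UMIs and at least 2 of those 4 genes. Outflow-like cells (70) had under 5 Myl2 UMIs and at least 2 of Sema3c, Tdgf1 and Rspo3. The remaining 609 cells had no class, among them Myl2-rich cells with at least 2 of the 4 atrial genes. They had Myl2 at 3058 CPM and a library median of Gja5 of 7.93 CPM. Check genes not used for the classes were compared with all other cardiomyocytes. Hey2 was 3.25-fold, Irx4 3.02-fold and Mpped2 1.95-fold higher in ventricular-like cells, and Kcna5 was 4.54-fold, Nr2f2 2.97-fold and Cav1 2.68-fold higher in atrial-like cells, each in 6 of 6 libraries.

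Atrial-like and ventricular-like cells differed at least 2-fold in Shox2, Gja5 and Kcnj3, 3 of the 6 measured genes, and all 3 were higher in atrial-like cells. Over 8452 genes, 4.25% were called higher on the atrial side and 1.85% lower. Shox2 ran from 26.4 to 84.4 CPM over libraries in atrial-like cells (median 49.4) and from 0 to 0.855 CPM in ventricular-like cells. Pooled levels were 54.3 CPM and 0.331 CPM, the latter resting on 12 UMIs, a ratio of 164 (interval 93.6 to 319). Gja5 ran from 21.8 to 37.7 CPM (median 30.3) against 1.53 to 10.7 CPM (median 3.83), a ratio of 6.14 (log2 2.62, and 3.65 with each cell thinned to 5000 UMIs). A Gja5 UMI was found in 49.5% of atrial-like and 15.3% of ventricular-like cells, and in 14.6% and 1.35% after thinning. Kcnj3 ran from 46.4 to 68.9 CPM (median 55.7) against 6.64 to 25.1 CPM (median 16.5), a ratio of 3.41. For these 3 genes the libraries of the 2 classes did not overlap. The share of the 8452 genes for which this also held was not counted.

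The calcium and pacemaker channel genes separated the chambers less. Cacna1d was 233 CPM in atrial-like and 160 CPM in ventricular-like cells, a ratio of 1.45, higher in 6 of 6 libraries. Cacna1c was 431 CPM against 536 CPM, a ratio of 0.80, lower in 6 of 6 libraries. Hcn4 was 12.6 CPM against 11.7 CPM and was higher on the atrial side in 3 of 6 libraries, with a ratio of 1.07 (interval 0.91 to 1.25). That value depended on the gate. When all cardiomyocytes were split by Myl2 alone, so that cells of every class could enter, the log2 ratio of Hcn4 was 1.91 instead of 0.10. It was 0.95 with the gates as above and each cell thinned to 5000 UMIs, which gives every cell the same weight. Under the Myl2 split Kcnj3 was no longer called, with a log2 ratio of 0.82 instead of 1.77, and Gja5 had 1.29 instead of 2.62. Which of the cells added by that split moved these values was not tested. Cacna1g was at 0.337 CPM and 0.248 CPM, too low to compare.

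The sinus-gene class held the highest Shox2 and Hcn4. Shox2 was 152 to 341 CPM there by library (median 208) and Hcn4 30.3 to 71.8 CPM (median 52.0). The Hcn4 values did not overlap those of any other class, whose highest library was 16 CPM (atrial-like). The share of all genes for which this also held was not counted, and no check gene was set for the sinus-gene class. Cacna1d was 362 CPM and Cacna1c 429 CPM in this class. AV canal-like cells had Shox2 at 4.58 CPM and Hcn4 at 6.42 CPM. Their pooled Cacna1c, 736 CPM, was the highest of the 5 classes, and ran from 683 to 823 CPM by library (median 737), above the highest value of 585 CPM in ventricular-like cells but within the 404 to 959.8 CPM of the few outflow-like cells. Kcnj3 in AV canal-like cells (61.2 CPM, 52.0 to 81.8 CPM) overlapped that of atrial-like cells (56.7 CPM). Gja5 was 1.62 CPM in AV canal-like and 4.46 CPM in sinus-gene cells, against 30.0 CPM in atrial-like cells. In the 70 outflow-like cells Cacna1d was 409 CPM (264 to 615 CPM), Hcn4 2.28 CPM and Kcnj3 0.455 CPM from 1 UMI. No Gja5 UMI was seen in them, where 3 UMIs would have been 1.37 CPM.

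**Figure D3:**
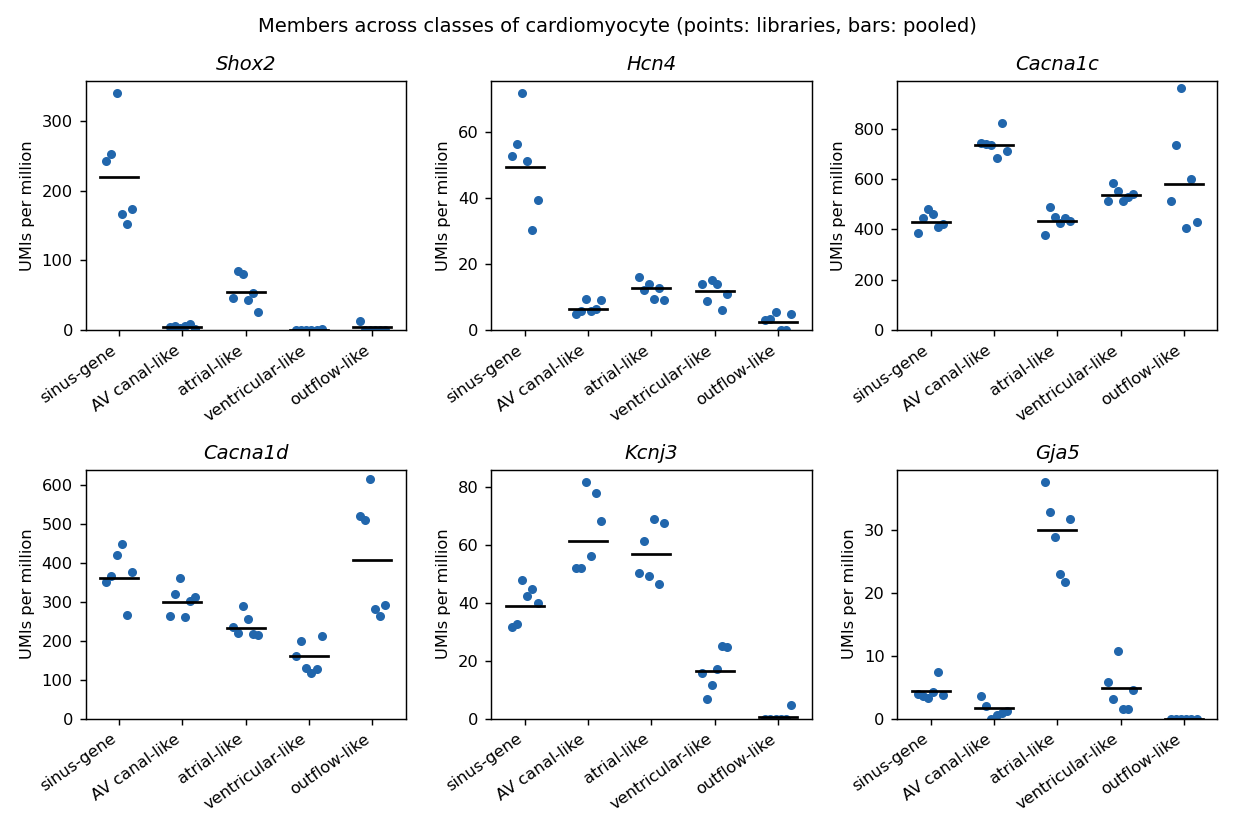
Level of 6 genes in 5 classes of cardiomyocyte, in CPM on axes that start at 0. Points are the 6 libraries and bars the pooled level. Shox2 and Hcn4 are highest in the sinus-gene class, Gja5 in atrial-like cells and Cacna1c in AV canal-like cells, while the points of the 70 outflow-like cells scatter widely.

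Shox2 itself was detected in a minority of cardiomyocytes. A cell was called Shox2-positive with 2 or more UMIs, which held for 758 of 3322 (22.8%, interval 21.4% to 24.3%), and the share by library was 19.5% to 26.5%. Another 2456 cells had none and 108 had 1 UMI. Positive cells held a median of 14 UMIs and a maximum of 63, with 17 to 25 cells at each number of UMIs from 6 to 9 and 17 to 27 at each from 10 to 15. Most positive cells (80.2%) were in the sinus-gene class and 14.1% were atrial-like, whereas 4 of 666 ventricular-like cells were positive. Positive cells had fewer UMIs than cells without Shox2, at medians of 35487 and 47664.

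Between Shox2-positive and Shox2-zero cardiomyocytes, Hcn4 and Cacna1d were at least 2-fold higher in the positive cells, 2 of the 4 other members that reached 10 CPM. Over 8877 genes, 4.48% were called higher and 1.76% lower, and 39.2% were higher in every library, whatever the size. Hcn4 was 51.0 to 103 CPM by library (median 78.7) in positive cells and 6.73 to 11.8 CPM (median 8.92) in cells without Shox2. The pooled ratio was 8.26 (interval 7.70 to 8.87), and the lowest positive library was over 4 times the highest zero library. An Hcn4 UMI was seen in 74.0% of positive and 28.3% of zero cells, and in 34.0% and 4.40% after thinning to 5000 UMIs. Read from the other side, 201 of the 223 cardiomyocytes with 5 or more Hcn4 UMIs (90.1%, interval 85.4% to 93.7%) were Shox2-positive, against 9.74% of the 2022 without Hcn4.

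Cacna1d was 323 to 523 CPM (median 431) in positive and 175 to 249 CPM (median 207) in zero cells. Its ratio was 2.04, just past the limit of 2. Its log2 ratio was 1.03 with all libraries, 0.95 without library 3 and just under 1 without library 4, and Hcn4 was then the only 1 called. Kcnj3 was 43.4 to 59.8 CPM (median 55.8) against 22.7 to 35.2 CPM (median 29.5), with no overlap and a ratio of 1.85, short of the limit. Cacna1c went the other way without overlap, 275 to 469 CPM (median 359) against 513 to 597 CPM (median 541), a ratio of 0.66. The share of all genes whose libraries did not overlap in this split was not counted. The sister L-type genes lay on opposite sides of 1. Gja5 was 4.53 CPM against 8.79 CPM, lower in 5 of 6 libraries, with both sides below 10 CPM. Cacna1g was 1.15 CPM against 0.518 CPM, also below that level.

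Because Myl2-rich ventricular cells are nearly all Shox2-zero, the split was repeated among cardiomyocytes with under 5 Myl2 UMIs (682 positive, 856 zero), an alternative chosen after seeing the data. Here 2.4% of 8900 genes were called higher and 1.69% lower. Hcn4 was 81.4 CPM against 7.66 CPM, a ratio of 10.6, and Hcn4, Cacna1d and Kcnj3 were higher in every library, as were 17.5% of all genes. Gja5 was 4.77 CPM against 17.3 CPM, lower in 6 of 6 libraries with a ratio of 0.28, and was the 1 member called lower. Cacna1d had a ratio of 1.86, Kcnj3 1.45 and Cacna1c 0.73, all short of 2-fold.

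Markers of some other cells differed in the split as well. The summed level of 4 epicardial markers was 81.3 to 230 CPM by library in positive cells and 48.9 to 90.8 CPM in zero cells, against 829 CPM in the epicardial gate. That of 4 neuronal markers was 27.9 to 143 CPM against 3.35 to 16.9 CPM, with 5275 CPM in neurons. The neuronal sums did not overlap and the epicardial ones overlapped slightly. The other sums overlapped between the sides. That of 4 endothelial markers was 16.6 to 34.5 CPM against 13.7 to 24.7 CPM, and that of 3 epithelial markers 2.15 to 29.8 CPM against 7.22 to 17.7 CPM. That of 4 erythroid markers was 42.5 to 7298 CPM against 44.0 to 2727 CPM, with 313545 CPM in erythroid cells. None of the markers in any list was at 0. Another gate was met by 28.0% of positive and 15.1% of zero cells. The gate met most often was that of cushion mesenchyme, whose markers were not summed. Of the 318 cardiomyocytes that met it, 137 were Shox2-positive. Without the cells that met another gate, Hcn4 had a log2 ratio of 3.12, against 3.05 with them, and Cacna1d 1.27, against 1.03, and Kcnj3 then passed the limit at 1.10.

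The pooled level of Hcn4 was higher with each step in the number of Shox2 UMIs in a cell. It was 9.23 CPM in cells with 0, 17.8 CPM with 1, 30.3 CPM with 2 to 9, 89.4 CPM with 10 to 19 and 113 CPM with 20 or more. Cacna1d followed the same order, from 210 CPM through 290, 321 and 469 CPM to 501 CPM. Gja5 had its highest pooled level, 14.9 CPM (4.53 to 23.3 CPM by library), in cells with 1 Shox2 UMI and its lowest, 1.67 CPM, in those with 20 or more. Pooled Kcnj3 was highest in the cells with 2 to 9 Shox2 UMIs, at 60.6 CPM, and was 43.9 CPM in those with 20 or more. Myl2, the ventricular myosin light chain gene, was 2221, 914, 297, 28.2 and 58.9 CPM over the same steps. Its library median was lower in the last step (18.3 CPM, 13.5 to 141 CPM) than in the fourth (29.4 CPM, 19.8 to 39.9 CPM), opposite to the pooled values. Nppa was 874, 324, 459, 80.0 and 254 CPM pooled and did not follow the order.

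**Figure D4:**
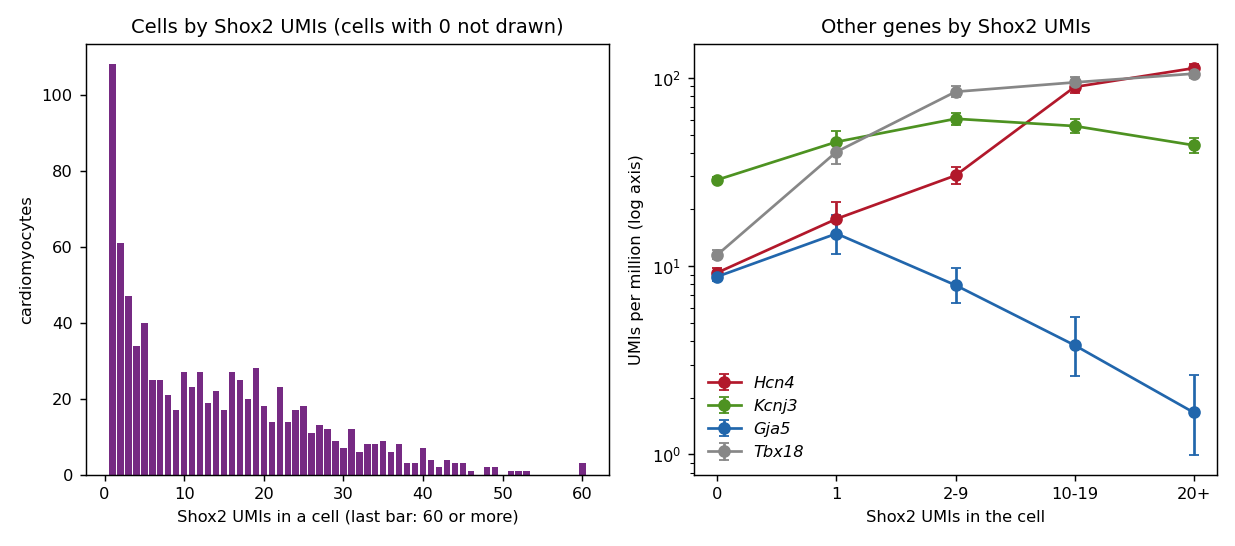
Left, the number of cardiomyocytes by their Shox2 UMIs, with the 2456 cells at 0 not drawn. Right, the pooled level of 4 genes in cells grouped by Shox2 UMIs, on a log axis of CPM with exact Poisson 95% intervals. Hcn4 goes from 9.23 to 113 CPM while Gja5 falls to 1.67 CPM.

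Shox2-positive cardiomyocytes were not uniform. A division by Nkx2-5, the factor that Shox2 is known to oppose, was chosen after the data were seen. No Nkx2-5 UMI was seen in 341 positive cells (45.0%), at a median of 33768 UMIs per cell, and 3 or more were seen in 325 (42.9%). A count of 0 in a cell does not show that the gene was off. Cells with no Nkx2-5 UMI had Hcn4 at 63.0 to 137 CPM by library (median 103) and Tbx18, a sinus horn factor, at 188 to 222 CPM. Cells with 3 or more Nkx2-5 UMIs had Hcn4 at 28.9 to 67.1 CPM (median 41.7) and Tbx18 at 0.516 to 11.7 CPM. The Tbx18 values were far apart and the Hcn4 values overlapped slightly. Gja5 was 0.455 CPM, from 6 UMIs, in the first and 9.28 CPM in the second. Nppa, the atrial natriuretic peptide gene of working chamber muscle, was 5.69 CPM against 603 CPM, and Kcnj3 32.6 CPM against 63.2 CPM. By library, Nppa was 2.98 to 8.25 CPM against a wide 17.5 to 1115 CPM. The 92 cells with 1 or 2 Nkx2-5 UMIs had Hcn4 at 97.8 CPM, Tbx3 at 34.6 CPM, Cacna1d at 595 CPM and Kcnj3 at 92.8 CPM. The last 2 were above both other sets when pooled. By library, Cacna1d (473 to 693 CPM) and Kcnj3 (31.8 to 153 CPM) overlapped both other sets. A count of 0 for Nkx2-5 alone did not go with high Hcn4: the 160 cells with no UMI of either Shox2 or Nkx2-5 had Hcn4 at 4.08 CPM, Kcnj3 at 2.60 CPM and Isl1 at 262 CPM.

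Genes of the wider conduction system were read from a list of 38 (12 transcription factors and other patterning or marker genes, 16 ion current genes, 3 connexins and 7 others), all in the table. In cardiomyocytes against other cells, 31 reached 10 CPM on either side, 22 were called higher and 2 lower. Over all genes measured, 9.16% were called higher and 10.3% lower. The median log2 ratio of the list was 2.14, against -0.22 over all genes measured. Of the measured currents, 10 of 11 were higher, and of the 7 others, 6 of the 6 measured. Kcnj5, which encodes GIRK4, the partner of Kcnj3's product in the atrial channel, was 84.3-fold higher, and Kcne1, a potassium channel accessory subunit, 51.3-fold. Slc8a1, the sodium-calcium exchanger, was at 3676 CPM (61-fold), Ryr2, the calcium release channel, at 840 CPM (39.3-fold) and Cacnb2, the L-type channel's beta subunit, at 687 CPM (11.4-fold). The 2 lower genes were Irx3, a factor of fast ventricular conduction, at 0.36-fold and Gja1, the connexin 43 gene, at 0.42-fold.

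In the Shox2 split, 31 of the 38 were measured, 7 were called higher and 1 lower, against 4.48% and 1.76% of all genes measured. The median log2 ratio of the list was 0.14, against 0.12 over all genes. Smoc2, a secreted matrix protein gene, was 74.4 to 265 CPM by library in positive cells and 0.661 to 1.47 CPM in zero cells (ratio 131). Vsnl1, a neuronal calcium sensor gene, was 649 CPM against 49.4 CPM (13.1). Tbx18 was 94.7 CPM against 11.5 CPM (8.23). Rgs6, which shortens the vagal signal to the GIRK channel, was 528 CPM against 134 CPM (3.93). Bmp4 (2.32), Tbx5 (2.06) and Cacna2d2 (2.04), an auxiliary calcium channel subunit gene, were nearer the limit, and Irx3 was the lower 1 (0.40). Tbx3 (1.35) and Isl1 (1.49) fell short of 2-fold, Kcnj5 had a ratio of 0.88, and Cacnb2 was 0.52, without overlap. Among cells under 5 Myl2 UMIs, 4 of 30 were called higher (Smoc2, Tbx18, Vsnl1 and Rgs6) and 1 lower (Tbx2, with a ratio of 0.48 and lower in 5 of 6 libraries). Of all genes measured there, 2.4% were called higher and 1.69% lower.

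Between atrial-like and ventricular-like cells, 8 of the 27 list genes measured were called higher and 2 lower, against 4.25% and 1.85% of all genes measured. The median log2 ratio of the list was 0.42, against 0.04 over all genes. The list genes Tbx18, Tbx3, Isl1, Smoc2, Vsnl1 and Bmp4 had defined the sinus-gene class, whose cells were set aside before these 2 classes were drawn. Vsnl1 was 309 CPM against 0.80 CPM (ratio 386). Kcna5, an atrial potassium channel gene and also a check gene of the atrial-like class above, was 48.1 CPM against 1.13 CPM (42.5). Kcnd2, a transient outward current gene, was 3.75-fold higher. Gja1 (0.28) and Irx3 (0.30) were on the ventricular side, opposite to Gja5.

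**Figure D5:**
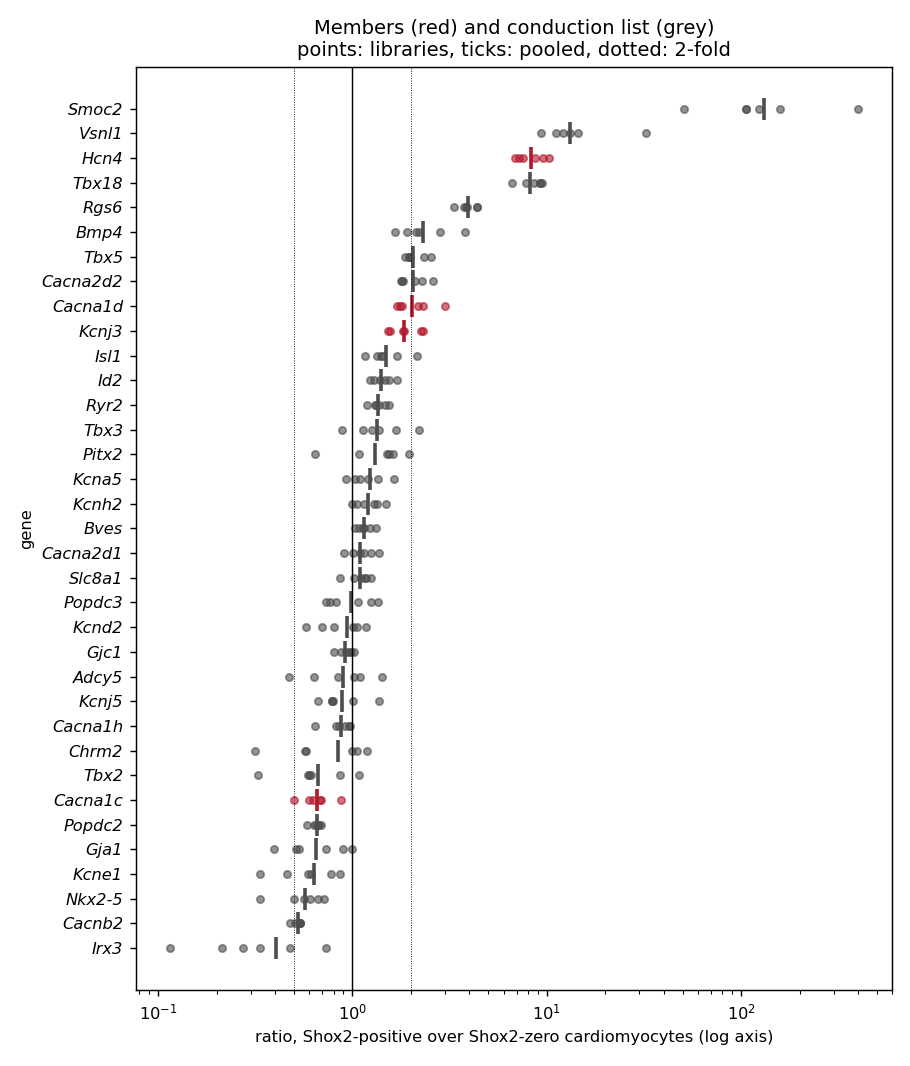
Ratio of Shox2-positive to Shox2-zero cardiomyocytes for the measured members (red) and list genes (grey), 1 point per library and a tick for the pooled value, on a log axis; dotted lines mark 2-fold. Smoc2, Vsnl1, Hcn4 and Tbx18 have all 6 libraries beyond 6-fold, and Irx3 and Cacnb2 lie at the low end.

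By a rule of size over all genes (at least 20 CPM in positive cells and the same direction in every library), the 10 genes with the largest ratios in Shox2-positive cells were Smoc2, Csmd1, Pcdh17, Slc44a5, Nefm, Calca, Lin7a, Zfp804b, Sh3gl3 and Hsd3b6. Their ratios ran from 131 down to 14.5. Csmd1 was 107 CPM against 3.03 CPM, Pcdh17, a protocadherin gene, 58.4 CPM against 2.80 CPM, and Calca, the calcitonin and CGRP gene, 106 CPM against 6.42 CPM. Nefm, the medium neurofilament gene, was 15.3 to 79.4 CPM by library against 0.304 to 6.83 CPM. Neuronal markers also differed in this split, and all 5 cardiomyocytes that met the neuron gate were Shox2-positive. Whether Nefm came from cells with neuronal RNA was not tested. Lin7a was 35.2 to 45.7 CPM against 1.65 to 2.83 CPM, the narrowest library range of the 10 in positive cells.

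Likeness of pattern was measured as Pearson's r of log2(CPM + 1) over 26 cell types and cardiomyocyte classes, among 12119 genes. The points share libraries and, within the heart, cells of 1 organ, so r is a description. Lin7a (0.82), Fgf12 (0.80) and Dner (0.75) were nearest to Shox2. Thbs4 (0.90), Ftcd (0.89) and Ryr2 (0.89) were nearest to Hcn4. Cend1, Fhod3 and Pth1r (0.92 to 0.90) were nearest to Cacna1c. Rbm24, Smyd1 and Kcnn2 (0.96 each) were nearest to Cacna1d. Ddr2, Twist2 and Prrx1 (0.94 to 0.89), which are genes of mesenchyme, were nearest to Cacna1g. Cmya5, Tesc and Acyp1 (0.91 to 0.88) were nearest to Kcnj3. Aldh1b1 (0.76), Kcnj3 (0.71) and Nppa (0.70) were nearest to Gja5, and Kcnj3 was the only member named by another.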

How the data were processed

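RNA was measured in single cells of 6 samples with a droplet 3′ kit, per the labels' protocols. The authors deposited raw UMI counts for 6 libraries in 1 table, and the header of the matrix names Cell Ranger 5.0.0 as its source. CASAVA 1.8, Seurat 4 and mm10 come from the submitters' processing notes. The annotation release, strand and intron settings were not given in the sources used here. Kept cells had at least 2500 genes and at most 10% mitochondrial UMIs, 195763232 to 245913073 UMIs per library. Cells were gated on marker UMIs without the members. Cells outside the heart muscle that met several gates (3041) or no gate (11194) were left out of types, and no doublet caller was run. CPM was computed from summed counts with exact Poisson, Clopper-Pearson and binomial ratio intervals (Python 3.11.15, numpy 2.4.6, scipy 1.17.1, pandas 2.3.3). A gene was measured with at least 10 CPM on either side and called at 2-fold. The ratio calculation was tested on simulated data. A member was always named. The other named genes were the 3 most alike, the 10 with the largest ratio in Shox2-positive cells, list genes of at least 10 CPM in cardiomyocytes and the 4 largest ratios each way. Genes outside these rules were named after their values were seen, among them the markers of the Gja5 and Kcnj3 cells and Nkx2-5 and Nppa. Another 2 genes of the conduction list are not reported here and were left out of its counts. Members, gates and lists were chosen with earlier results of these data known. Alternatives were the cell filter, the cardiomyocyte gate, the Shox2 and Myl2 limits, the fold, thinning to 5000 UMIs (4 shallower cells left out) and each library left out.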

Additional observations from a re-analysis of the deposited data

How the results depend on the processing

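No paired analysis was possible because no library is tied to a sample, so the labels' replicate numbers could not be used between vehicle and STZ embryos. Cell classes were compared inside each library, and the number of libraries in each direction is given beside the results without a test. Of 64 alternative values of the 4 counts of members, 60 stayed within 1.5 times the reported count. The counts of 5 members higher in cardiomyocytes, 3 higher in atrial-like cells and 4 with cardiomyocytes as the highest type were the same under each alternative run, but not always the same genes: with Myl2 alone as the gate, Kcnj3 fell below 2-fold and Hcn4 passed it. The count of 2 members higher in Shox2-positive cells ranged from 1 to 3. It was 1 with Shox2-positive cells defined by at least 1 UMI, and 1 among cells under 5 Myl2 UMIs, an alternative added after seeing the data. Leaving out 1 library at a time gave 1 to 2, with 1 for library 3 and for library 4, where Cacna1d fell below 2-fold. Under 5 Myl2 UMIs and without cells of another gate, also added after seeing the data, the count was 2. Of 310 alternative log2 ratios of single members, 210 moved by less than the counting interval, 100 moved further and 0 changed the sign of a called value. The widest range was that of Cacna1g in the Shox2 split, from -1.63 with thinning to 1.34. Cacna1g had only 103 UMIs in all cardiomyocytes, and its ratio inside the heart took either sign. Between atrial-like and ventricular-like cells, Gja5 ranged from 1.29 to 3.65, Shox2 from 5.85 to 7.98, Hcn4 from -0.02 to 1.91 and Kcnj3 from 0.82 to 1.99, against 2.62, 7.36, 0.10 and 1.77 as reported. The lowest values of Gja5, Shox2 and Kcnj3 and the highest of Hcn4 came with Myl2 alone as the gate.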

Other observations

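The libraries could not be put into groups, and a few sets of library values, chosen after they were seen, are given here without one. In the sinus-gene class, Shox2 was 243, 252, 341, 167, 152 and 174 CPM in libraries 1 to 6. In second arch crest, Shox2 was 7.59, 7.57, 7.11, 4.42, 4.02 and 3.06 CPM in the same order. In neurons, Shox2 was 94.3, 129, 61.7, 194, 154 and 161 CPM, with 3 cells in library 3. The order of the libraries thus differed between cell types. In ventricular-like cells, Gja5 was 5.89, 3.05, 10.7, 1.53, 1.58 and 4.62 CPM.

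Gja5 was also read against Hcn4 and Kcnj3 cell by cell. It was 8.23 CPM in the 722 cardiomyocytes with 2 or more Hcn4 UMIs and 7.40 CPM in the 2022 without Hcn4. It was 11.8 CPM in the 941 cardiomyocytes with 2 or more Kcnj3 UMIs (7.49 to 17.6 CPM by library) and 6.11 CPM in the 2057 without Kcnj3 (3.12 to 8.67 CPM).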
